A study of Mus musculus with 4 samples.

Results

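The 33 imprinted genes described here were taken from a list of genes known in the mouse to be transcribed mainly from the copy of 1 parent. Of these, 19 are paternally expressed and 13 are maternally expressed, and *Gnas* was kept apart because its products differ in the expressed copy. Rows of all 33 genes were present at MS-LS (of 16639 genes in the table) and at EHF (of 18640), and of 32 at OB-EB (of 16341), where *Dcn* had no row. The embryos carried TnEGP-CreERT2/+; R26Rtdtomato/R26Rtdtomato, so that a Cre made from the *T* locus and activated by tamoxifen switches on tdTomato in primitive streak cells and their descendants. All embryos had received tamoxifen by oral gavage (0.08 mg per body weight) and no untreated embryos were included. They were collected at E6+21h (mid and late streak, MS-LS), E7+3h (no bud and early bud, OB-EB) and E7+14h (early head fold, EHF). By the authors' account, the time from tamoxifen to collection differed between the stages. The embryos of a stage were pooled into 1 droplet library, so stage, litter, library and time since tamoxifen cannot be told apart. The strain was not given in the sources used here.

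Imprinted genes lie in clusters whose control regions are methylated in only the egg or the sperm, and the mark is kept after fertilisation. Many of them act on growth. *Igf2* is the fetal growth factor of the insulin-like family and is made from the paternal copy, whereas the maternally expressed *Igf2r* clears it, *Grb10* and *Cdkn1c* restrain growth signalling and the cell cycle, and *Phlda2* limits placental growth. Imprinted genes are known for their activity in the placenta and the yolk sac, the tissues through which the embryo is fed. The counts used here do not separate the parental copies. "Paternally" and "maternally" expressed are therefore background labels, and a level says nothing about which copy was read.

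The members fall on 9 chromosomes of GRCm38, 15 of them on chromosome 7. *H19* (chromosome 7, 142575529 to 142578143) and *Igf2* (142650766 to 142666816) share 1 domain, and *Kcnq1ot1* (143203458 to 143296549), a long antisense RNA, shares another with *Cdkn1c*, *Phlda2*, *Slc22a18*, *Cd81* and *Tssc4*. *Dlk1*, *Meg3* and *Rian* lie together on chromosome 12, *Peg10*, *Sgce* and *Ppp1r9a* on chromosome 6, and *Igf2r* and its antisense RNA *Airn* on chromosome 17. RefSeq promoter windows of 300 bases (GRCm38.p6) were found for 27 of the 33 members, 43 windows in all. *Peg10*, *Sgce*, *Impact*, *H19*, *Cdkn1c* and *Dcn* had none that was used. The letters TGCCGC, the core of the motif read by ZFP57, a zinc finger protein that guards methylated imprints, were searched on both strands, and overlapping matches were counted separately. They occurred in 10 of the 43 windows (23.3%) and in 11.6% of all 32851 windows. The median number of CpG was 12 in the member windows and 7 over all windows. A match describes the letters only.

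The 3 stretches shown here bear on the results that follow. They are given 5′ to 3′ on the plus strand, with TGCCGC or its reverse complement in capitals. *Mest* is shown because its windows were the only member windows with 2 matches and its level was high in extraembryonic mesoderm. *Meg3* is shown because its ratio in extraembryonic mesoderm changed sign between stages. The stretch between the starts of *Peg3* and *Usp29*, which run in opposite directions, is shown because both genes start at its ends.
Mest, chr6:30737800-30738049, the 250 bases before the start: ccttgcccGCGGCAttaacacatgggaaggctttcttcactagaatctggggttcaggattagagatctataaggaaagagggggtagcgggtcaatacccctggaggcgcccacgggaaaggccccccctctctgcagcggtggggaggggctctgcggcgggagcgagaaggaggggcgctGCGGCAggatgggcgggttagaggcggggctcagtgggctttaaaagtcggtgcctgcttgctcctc
Meg3, chr12:109540746-109540995, the 250 bases before the start: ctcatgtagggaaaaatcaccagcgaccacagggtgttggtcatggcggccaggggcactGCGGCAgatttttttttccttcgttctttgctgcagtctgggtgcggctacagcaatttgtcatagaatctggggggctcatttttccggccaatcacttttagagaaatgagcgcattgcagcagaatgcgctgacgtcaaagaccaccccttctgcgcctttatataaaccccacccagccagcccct
Peg3 to Usp29, chr7:6730420-6730582, all 163 bases between the starts: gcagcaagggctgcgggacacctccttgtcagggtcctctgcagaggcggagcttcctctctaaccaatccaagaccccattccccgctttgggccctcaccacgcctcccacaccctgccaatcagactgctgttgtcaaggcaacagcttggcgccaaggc
The 300-base windows of *Peg3* and *Usp29* shared 263 bases. *Mest* held 14 CpG in its stretch, *Meg3* 10, and the stretch between *Peg3* and *Usp29* held 5 CpG and no TGCCGC.

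The 3 libraries held 3635, 3994 and 3494 cells, with medians of 4251, 2620.5 and 5584 unique molecular identifiers (UMIs, each standing for 1 captured molecule) per cell at MS-LS, OB-EB and EHF. The members took 0.322%, 0.36% and 0.445% of all UMIs. A second EHF table was identical in all 65128160 values and was not counted again. Between libraries, 12 to 18 cell barcodes were shared and none had equal counts. Cells were clustered without the member genes and clusters were named from markers, which gave 1668, 2039 and 1442 embryonic cells, 537, 245 and 481 trophoblast-like cells, 543, 328 and 397 extraembryonic endoderm-like cells and 226, 301 and 213 extraembryonic mesoderm-like cells at MS-LS, OB-EB and EHF. Blood- and endothelium-like cells numbered 74, 146 and 187. They were all endothelium-like at MS-LS and OB-EB, and comprised 100 blood-like and 87 endothelium-like cells at EHF. A compartment also took in clusters between 2 of its types, so that at EHF the extraembryonic mesoderm compartment held 104 cells of the class of that name and a cluster of 109 cells between it and allantois. No compartment was given to 16.1%, 23.4% and 22.2% of cells. All 10 visceral endoderm markers were detected in extraembryonic endoderm, where their summed level was 35451 to 50143 CPM (defined below). In embryonic cells it was 583 to 964 CPM. The 10 extraembryonic ectoderm markers summed to 1394 to 1634 CPM in trophoblast and to 33.9 to 52.3 CPM in embryonic cells. At MS-LS the cells without a compartment held visceral endoderm markers at 12229 CPM.

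A level in CPM is the sum of a gene's UMIs in a group of cells per 1000000 UMIs of that group, and a difference is the log2 ratio of 2 such levels. Brackets hold exact Poisson 95% intervals, which cover counting error only. With 1 library a stage there was no replicate, and no test between groups was made. A gene was counted as higher or lower where its CPM differed at least 2-fold and at least 20 UMIs were found over both groups. Where a group had no UMI of a gene, a floor of 3 UMIs was put in its place for this call and for the medians. A gene absent from a small group can therefore be called within 2-fold, or even higher. In such sums, a lower level in each cell and a smaller share of cells with the gene cannot be told apart. The values of the 22 members that reached 50 CPM in some cell class are drawn in the map of levels by compartment and stage.

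**Figure D1:**
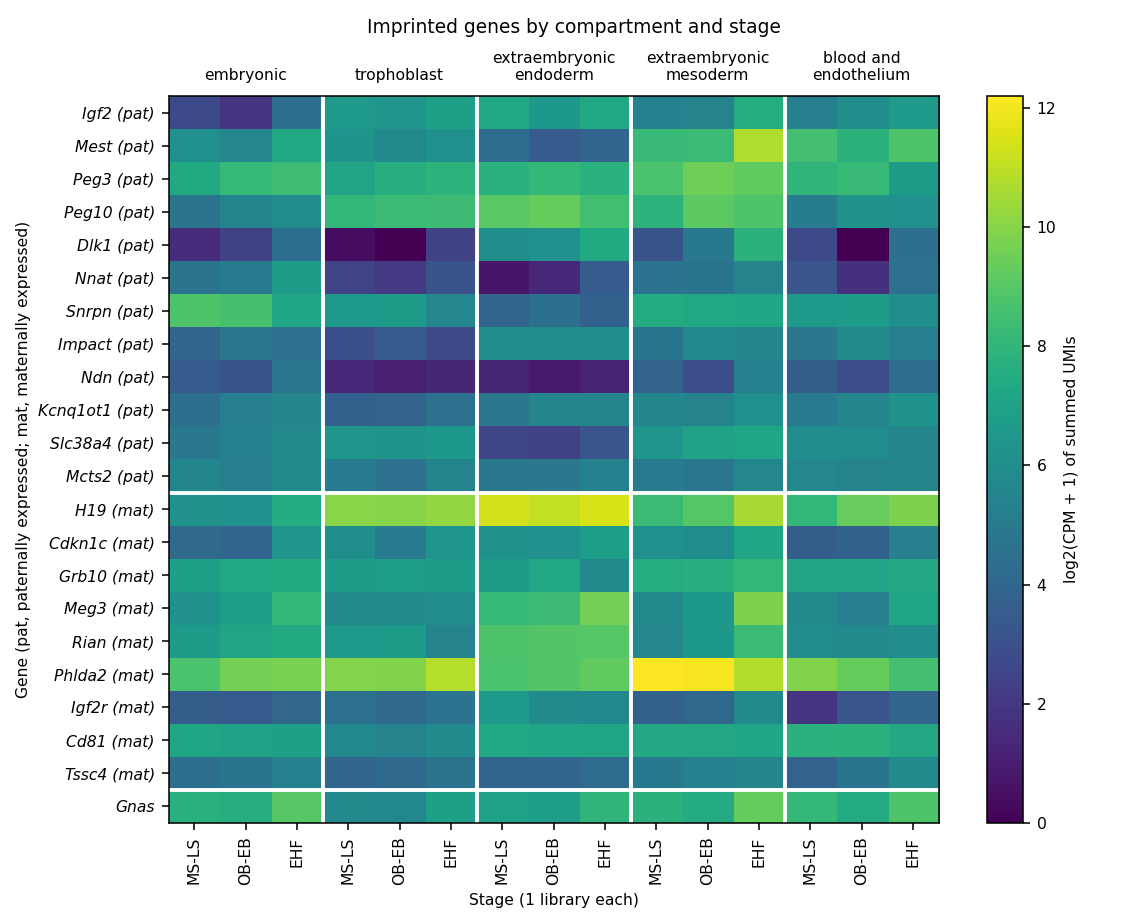
Levels of the 22 imprinted genes that reached 50 CPM in at least 1 cell class, as log2(CPM + 1) of summed UMIs (colour scale). Columns are the 5 compartments, each at MS-LS, OB-EB and EHF, with 1 library a stage. *H19* is brightest in extraembryonic endoderm, *Phlda2* in extraembryonic mesoderm at MS-LS and OB-EB, and *Snrpn* in embryonic cells at MS-LS and OB-EB.

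The first comparison asked how trophoblast, the lineage of the placenta, differed from the embryo proper. All trophoblast cells counted here were of the extraembryonic ectoderm-like class, and no class was named after the ectoplacental cone. At EHF a cluster of 34 cells scored highest for ectoplacental cone but was given no compartment. The values below therefore do not describe trophoblast in general. *Igf2*, *Peg10* and *H19* were at least 2-fold higher in trophoblast at all 3 stages. *Peg10*, a retrotransposon-derived gene needed for placental development, was at 269, 316 and 327 CPM in trophoblast and at 24.7, 44.4 and 57.6 CPM in embryonic cells at MS-LS, OB-EB and EHF. Its log2 ratio was 3.44 (3.23 to 3.66), 2.83 (2.59 to 3.07) and 2.51 (2.35 to 2.66), so the ratio was smallest at EHF although the trophoblast level was highest there. *H19*, a maternally expressed noncoding RNA, was at 1028, 1017 and 1177 CPM in trophoblast against 73.1, 70.5 and 180.1 CPM. *Igf2* was at 94.3, 81.4 and 118 CPM in trophoblast against 5.67, 2.56 and 20.6 CPM, with log2 ratios of 4.06 (3.62 to 4.52), 4.99 (4.22 to 5.84) and 2.51 (2.26 to 2.77). In both genes the smallest ratio was that at EHF, where the embryonic level was highest. *Phlda2* was at 979, 940.0 and 1826 CPM in trophoblast against 428, 809 and 844 CPM and was past 2-fold at MS-LS and EHF but not at OB-EB, where the log2 ratio was 0.22 (0.11 to 0.32). *Slc38a4*, an amino acid transporter of the placenta, had log2 ratios of 1.49, 0.98 and 0.81 and was past 2-fold at MS-LS alone.

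More members were lower than higher in trophoblast. *Nnat*, *Snrpn*, *Impact*, *Ndn*, *Usp29*, *Magel2*, *Cd81* and *Gnas* were at least 2-fold lower at all 3 stages. *Snrpn*, which codes for a splicing protein of the Prader-Willi region, was at 452, 404 and 149.9 CPM in embryonic cells and at 95.9, 98.5 and 48.8 CPM in trophoblast, a log2 ratio of −2.23 (−2.41 to −2.06), −2.04 (−2.35 to −1.74) and −1.62 (−1.86 to −1.39). *Gnas*, the locus of the stimulatory G protein alpha subunit, was at 216, 191 and 525 CPM against 51.9, 50.3 and 116 CPM, with log2 ratios of −2.06, −1.93 and −2.18. *Cd81*, a tetraspanin, was the only maternally expressed member at least 2-fold lower at every stage, at 51.6, 42.8 and 55.4 CPM in trophoblast and 150.0, 129 and 116 CPM in embryonic cells. *Ndn* and *Magel2*, neighbours of *Snrpn*, had only 5, 1 and 5 and 5, 1 and 1 UMIs in trophoblast, so the sizes of their ratios were poorly fixed. The same holds for *Usp29*, with 4, 2 and 13 trophoblast UMIs, and at OB-EB for *Nnat*, with 3. *Impact* at OB-EB had an interval of −2.38 to −0.39, which reaches under 2-fold.

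In counts, 7 of 27 members with enough UMIs were higher and 8 lower in trophoblast at MS-LS, where 11.3% and 14.9% of all genes were higher and lower. At OB-EB it was 5 higher and 10 lower of 29 (all genes 9.53% and 16%), and at EHF 4 higher and 15 lower of 30 (all genes 9.92% and 19%). *Dlk1* at OB-EB, with 0 UMIs in trophoblast and 29 in embryonic cells, was within 2-fold only because of the floor. The 10 lower members at OB-EB included *Zrsr1*, which rested on 1 trophoblast UMI and had an interval of −7.47 to 0.46. The median log2 ratio of the counted members was −0.47, −0.56 and −0.87, beside 0.0066, −0.042 and −0.049 over all genes. The lower members at EHF comprised 11 of 18 paternally expressed and 3 of 11 maternally expressed genes, with *Gnas*. Among them *Meg3* and *Rian* had moved from log2 ratios of −0.48 and −0.93 and of −0.19 and −0.45 at the earlier stages to −2.09 (−2.30 to −1.90) and −1.97 (−2.22 to −1.73) at EHF. *Mest*, a hydrolase-like gene active in mesoderm, was at 77.7, 55.7 and 67.8 CPM in trophoblast against 69.7, 49.8 and 160.0 CPM. It was within 2-fold at MS-LS and OB-EB and lower at EHF, and the embryonic level differed more between stages than that in trophoblast.

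**Figure D2:**
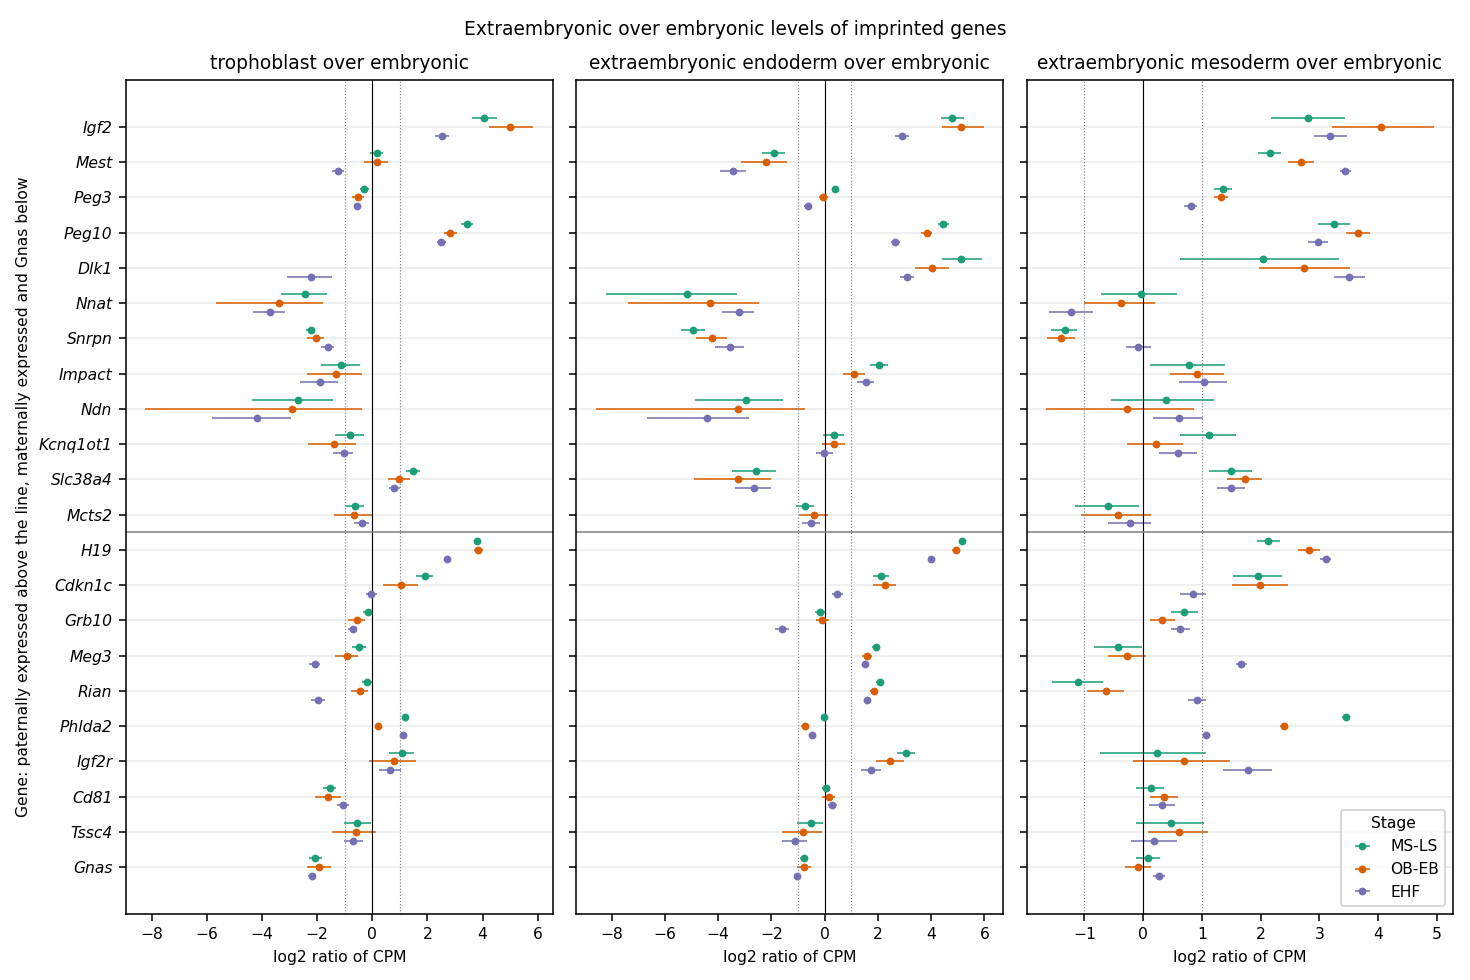
Log2 ratio of CPM in trophoblast, extraembryonic endoderm and extraembryonic mesoderm over embryonic cells for the 22 genes of the map, 1 point a stage with its exact Poisson 95% interval. Dotted lines mark 2-fold, and the 3 panels have scales of their own. Ratios with under 20 UMIs over both groups or with no UMI in a group are left out. *Igf2*, *Peg10* and *H19* lie right of the 2-fold line in every panel and at every stage.

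Extraembryonic endoderm, which forms the yolk sac, had the highest *H19* levels of the compartments. *H19* stood at 2600.0, 2153 and 2872 CPM at MS-LS, OB-EB and EHF, and its log2 ratio over embryonic cells was 5.15 (5.04 to 5.27), 4.93 (4.79 to 5.08) and 4.0 (3.92 to 4.07). *Igf2* was at 156, 90.2 and 154 CPM and *Peg10* at 541, 632 and 363 CPM, and both were past 2-fold at each stage. The genes of the *Dlk1* domain were also high there. *Dlk1*, a membrane ligand related to those of Notch, was at 67, 71.2 and 171 CPM in this compartment, 1.93, 4.37 and 20.3 CPM in embryonic cells and 0.33, 0 and 4.31 CPM in trophoblast. *Meg3* and *Rian*, the maternally expressed noncoding RNAs of the same domain, were at 285, 326 and 799 CPM and 439.6, 494 and 499 CPM, with log2 ratios over embryonic cells of 1.94, 1.59 and 1.53 and 2.07, 1.85 and 1.58. *Igf2r* was at 91.4, 54.6 and 50.9 CPM against 11, 9.94 and 15.3 CPM, with log2 ratios of 3.06 (2.72 to 3.41), 2.46 (1.94 to 2.97) and 1.74 (1.37 to 2.10), so *Igf2* and the receptor that clears it were high in the same compartment. *Impact*, a regulator of translation under stress, was at 61.2, 57.1 and 65.4 CPM here and at 6.85, 10.7 and 6.03 CPM in trophoblast, with embryonic cells between them at 15, 26.3 and 22.5 CPM.

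The members lower in extraembryonic endoderm at all 3 stages were *Mest*, *Nnat*, *Snrpn*, *Ndn*, *Slc38a4* and *Magel2*, all 6 of them paternally expressed. Of these, *Snrpn*, *Ndn* and *Magel2* share a domain and are not separate cases. *Snrpn* was at 14.8, 21.5 and 12.8 CPM there, with log2 ratios of −4.93 (−5.40 to −4.50), −4.23 (−4.85 to −3.68) and −3.54 (−4.11 to −3.03). *Slc38a4* was at 4.81, 4.14 and 8.28 CPM, whereas trophoblast held it at 80.9, 78.2 and 91 CPM. *Mest* was at 18.6, 10.8 and 14.9 CPM. *Magel2* had no UMI in extraembryonic endoderm at any stage against 56, 62 and 44 UMIs in embryonic cells, which puts its log2 ratio at or below −2.62, −1.91 and −2.0 for a floor of 3 UMIs over the group.

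At MS-LS 10 of 27 counted members were higher and 6 lower in extraembryonic endoderm (all genes 21.6% and 18%). The counts were 10 and 7 of 29 at OB-EB (16.2% and 18.6%) and 8 and 11 of 29 at EHF (16.2% and 23%). By side, 5 of 10 counted maternally expressed members were higher and none lower at both MS-LS and OB-EB, and 4 of 11 were higher and 2 (*Grb10* and *Tssc4*) lower at EHF. Of the paternally expressed members 5 of 16 were higher and 6 lower at MS-LS, 5 of 18 and 7 at OB-EB, and 4 of 17 and 8 at EHF. The median log2 ratio was 1.06, 0.89 and 0.48 for maternally and −0.38, −0.67 and −0.76 for paternally expressed members, and 0.047, −0.11 and −0.19 over all genes. *Grb10*, an adaptor that dampens insulin-like signalling, was within 2-fold at the earlier stages and at 103, 151 and 56.7 CPM against 116, 159 and 171 CPM in embryonic cells, a log2 ratio of −1.60 (−1.86 to −1.34) at EHF.

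Free RNA from broken cells can add UMIs of abundant genes to every droplet. In epiblast-like cells, which should lack visceral endoderm markers, those 10 markers stood at 1.62% (1.56 to 1.69), 1.15% (1.10 to 1.21) and 0.68% (0.57 to 0.80) of their level in extraembryonic endoderm. *H19* in epiblast-like cells stood at 2.55% (2.26 to 2.87), 2.52% (2.13 to 2.97) and 2.22% (1.57 to 3.05) of its extraembryonic endoderm level, above the marker share at each stage. *Igf2* in the same cells rested on 20, 2 and 3 UMIs. Its share was 2.90% (1.75 to 4.53) at MS-LS, above that of the markers, but at OB-EB and EHF (0.78%, 0.09 to 2.89, and 3.26%, 0.67 to 9.61) it overlapped theirs. Set against trophoblast, where the extraembryonic ectoderm markers stood at 2.94% (2.53 to 3.39), 2.60% (2.11 to 3.18) and 3.28% (2.24 to 4.64), *Igf2* overlapped at all 3 stages, with 4.80% (2.89 to 7.56) at MS-LS. *Dlk1* rested on 5, 5 and 4 UMIs, and its share of the extraembryonic endoderm level overlapped that of the markers at MS-LS (1.69%, 0.54 to 4.01) and OB-EB (2.47%, 0.78 to 6.0) but not at EHF (3.92%, 1.06 to 10.11). *Peg10* overlapped at MS-LS (1.97%, 1.44 to 2.63) and lay above at OB-EB (2.28%, 1.63 to 3.13). The levels of *Igf2*, *Dlk1* and *Peg10* in epiblast-like cells could therefore not be told apart from this background at the stages where the shares overlap, and the ratios of these genes over embryonic cells carry the same limit. Markers of a single compartment do not measure free RNA from the others. *H19*, *Igf2* and *Peg10* were also high in trophoblast and extraembryonic mesoderm, and *Dlk1* in extraembryonic mesoderm at EHF. A share above that of the markers, as for *H19*, therefore does not set a gene apart from background, and the *H19* ratios carry this limit too.

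**Figure D3:**
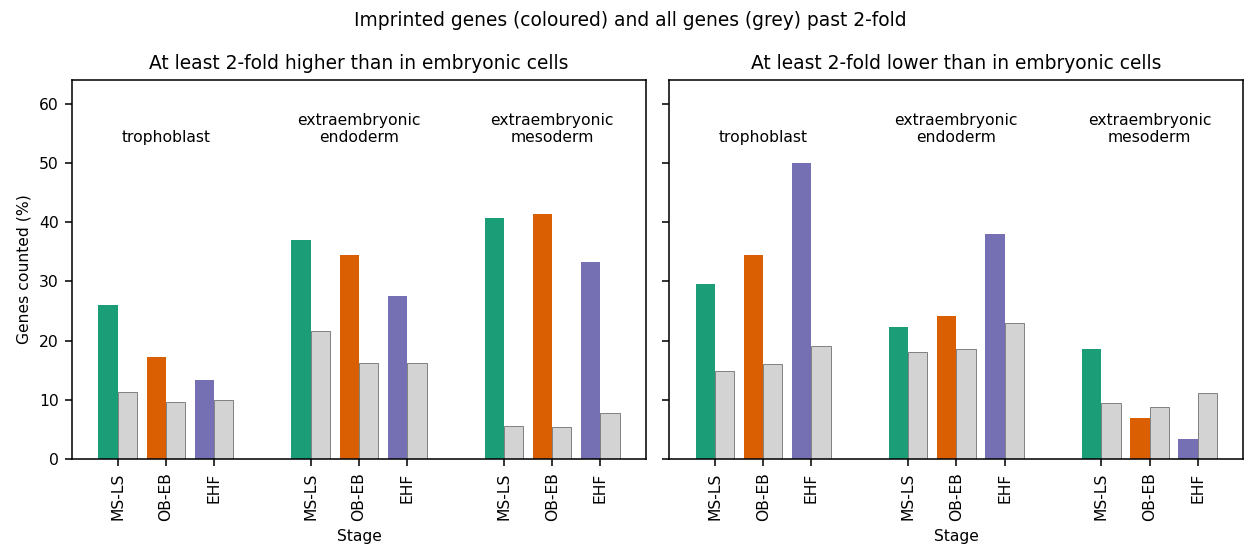
Share (%) of the counted imprinted genes (coloured bars) and of all counted genes (grey bars) that were at least 2-fold higher (left) or lower (right) than in embryonic cells, for 3 compartments and 3 stages. In extraembryonic mesoderm 33.3% to 41.4% of the members were higher beside 5.35% to 7.78% of all genes.

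Extraembryonic mesoderm, the source of the allantois, the amnion lining and the yolk sac mesoderm, held the largest share of members past 2-fold upward. At MS-LS 11 of 27 members were higher and 5 lower (all genes 5.57% and 9.52%), at OB-EB 12 and 2 of 29 (5.35% and 8.79%), and at EHF 10 and 1 of 30 (7.78% and 11.2%). The higher members included 8 of 16, 9 of 18 and 6 of 18 paternally expressed genes and 3 of 10, 3 of 10 and 4 of 11 maternally expressed genes. *Igf2*, *Mest*, *Peg10*, *Dlk1*, *Slc38a4*, *H19* and *Phlda2* were higher at all 3 stages, and no member was lower at all 3.

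*Phlda2* and *Mest* differed between stages in opposite ways there. At EHF alone this compartment also held the cluster of 109 cells between extraembryonic mesoderm and allantois. The stages below thus compare unlike mixes of cells, and the part of that difference was not tested. *Phlda2* was at 4689 CPM (4556 to 4825) at MS-LS, 4255 CPM (4131 to 4381) at OB-EB and 1778 CPM (1711 to 1847) at EHF. Its log2 ratio over embryonic cells went from 3.45 (3.39 to 3.52) through 2.39 (2.34 to 2.45) to 1.07 (1.01 to 1.14). *Mest* was at 310.4 CPM (277 to 347), 322 CPM (288 to 358) and 1736 CPM (1670.2 to 1804), and its log2 ratio was 2.15 (1.95 to 2.35), 2.69 (2.47 to 2.91) and 3.44 (3.35 to 3.53). The intervals of both genes at MS-LS and EHF lay far apart. *Dlk1* in extraembryonic mesoderm was at 7.93, 29.2 and 231 CPM, *Meg3* at 55.5, 89.6 and 881 CPM and *Rian* at 48.6, 88.7 and 314 CPM, so all 3 genes of that domain were highest at EHF. *Igf2* was at 39.7, 42.4 and 188 CPM, *H19* at 320.3, 499.9 and 1554 CPM and *Igf2r* at 12.9, 16 and 52.6 CPM. *Peg3*, a zinc finger gene with a part in growth and maternal care, was at 431, 719.6 and 592 CPM against 168, 287 and 338 CPM in embryonic cells, and was past 2-fold at MS-LS and OB-EB. *Snrpn* was at 178, 154 and 142 CPM and was lower than in embryonic cells at MS-LS and OB-EB, with log2 ratios of −1.34 (−1.56 to −1.12) and −1.39 (−1.63 to −1.17), and within 2-fold at EHF, where the embryonic level itself was lower.

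The blood and endothelium compartment was kept apart, since the place of its cells in the dissociated embryo is not known. Its endothelium-like class had *Igf2* at 38.2, 64.8 and 143 CPM, *Mest* at 379, 229 and 846 CPM and *H19* at 273, 661 and 1116 CPM, all above the embryonic levels, while *Nnat* (8.18, 2.16 and 28.6 CPM) and *Snrpn* (95.4, 104 and 80.5 CPM) were below them. The counts over the whole compartment mix both classes at EHF. At MS-LS 5 of 26 members were higher than in embryonic cells and 4 lower (all genes 15.1% and 9.66%), at OB-EB 5 and 5 of 29 (7.91% and 11.9%), and at EHF 3 and 9 of 29 (6.72% and 16.5%). The floor of 3 UMIs was 8.18 CPM in this compartment at MS-LS and 6.48 CPM at OB-EB. A gene with no UMI there and few in embryonic cells could thus be counted as higher. The 15.1% at MS-LS can include such genes, and the 7.91% at OB-EB to a lesser degree, so neither is a clean background. By the same floor *Magel2* (MS-LS), *Dlk1* and *Zrsr1* (OB-EB) and *Slc22a18* (EHF) were within 2-fold with no UMI there. The blood-like and endothelium-like classes differed at EHF. *Mest* was at 846 CPM (772 to 926) in endothelium-like and 26.8 CPM (14.6 to 44.9) in blood-like cells, *Meg3* at 279 and 11.5 CPM, and *Phlda2* at 648 and 70.8 CPM.

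Within the embryo proper, several members differed between germ layers. Epiblast-like cells at MS-LS had *Phlda2* at 87 CPM (78.5 to 96.1), primitive streak-like cells at 379.8 CPM (349.8 to 412) and nascent mesoderm-like cells at 1466 CPM (1411 to 1523). *Peg3* followed the same order, at 60.5, 231 and 359 CPM, and *Snrpn* the opposite one, at 553, 419 and 291 CPM. At EHF the neuroectoderm-like class had *Snrpn* at 255 CPM (231 to 282) and *Phlda2* at 111 CPM (95 to 129), while nascent mesoderm-like cells had them at 84.5 CPM (67 to 105) and 3197 CPM (3084 to 3313). Among these classes, high *Snrpn* thus went with epiblast-like cells at MS-LS and neuroectoderm-like cells at EHF. High *Phlda2* went with nascent mesoderm-like cells at both stages, and high *Peg3* with them at MS-LS. Other mesoderm classes were not compared here.

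*Cdkn1c*, an inhibitor of cyclin-dependent kinases, was highest of 14 EHF classes in cardiac mesoderm-like cells, at 435 CPM (389 to 486), followed by definitive endoderm-like cells at 179 CPM (142 to 223). The level in presomitic mesoderm-like cells was 29.1 CPM (18 to 44.4) and that in neuroectoderm-like cells 32.4 CPM (24 to 42.9). *Nnat*, a small membrane protein of neural and other tissues, was highest in paraxial mesoderm-like cells, at 294 CPM (250.4 to 344), then in presomitic mesoderm-like cells at 174 CPM (145 to 208), and its level in neuroectoderm-like cells was 77.4 CPM (64 to 92.8). In cardiac mesoderm-like cells *H19* (744 CPM), *Igf2* (119 CPM) and *Mest* (602 CPM) were above their levels in the epiblast-like class (63.7, 5.03 and 106 CPM). The extraembryonic mesoderm-like class of 104 cells exceeded the cardiac class in all 3 genes, at 1932, 227 and 2171 CPM. The 64 parietal endoderm-like cells at EHF had *H19* at 243 CPM (176 to 327), whereas visceral endoderm-like cells had it at 3080.1 CPM (3008 to 3154).

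Levels in embryonic cells differed between stages. From MS-LS to OB-EB, 2 of 28 counted members (*Dlk1* and *Usp29*) were at least 2-fold higher and 1 (*Igf2*) was lower, beside 6.95% and 3.04% of all genes. *Dlk1* rested on 17 and 29 embryonic UMIs and *Igf2* on 50 and 17, and in epiblast-like cells neither could be told apart from free RNA at OB-EB, so both differences carry that limit. From MS-LS to EHF, 16 of 29 counted members were at least 2-fold higher and 1, *Snrpn*, was lower, beside 19% and 5.74% of all genes. The median of all genes was itself shifted by 0.36 (log2) between these libraries, and by 0.24 in trophoblast, 0.089 in extraembryonic endoderm and 0.29 in extraembryonic mesoderm. Relative to that shift 8 members were higher and 1 lower, beside 12.1% and 9.26% of all genes. The 8 members were *Igf2*, *Plagl1*, *Dlk1*, *Nnat*, *Sgce*, *Cdkn1c*, *Meg3* and *Slc22a18*.

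*Dlk1* in embryonic cells was at 1.93, 4.37 and 20.3 CPM at MS-LS, OB-EB and EHF, a log2 ratio of 3.39 (2.68 to 4.21) between EHF and MS-LS. *Cdkn1c* was at 17.7, 14.9 and 82.4 CPM in embryonic cells and at 66.2, 31 and 80.4 CPM in trophoblast, and its embryonic log2 ratio was 2.22 (1.97 to 2.48). *Nnat* was at 24.5, 33.1 and 101 CPM with a log2 ratio of 2.04 (1.83 to 2.26), and *Meg3* at 74.3, 108 and 277 CPM with 1.90 (1.77 to 2.02). *Snrpn* went the other way, with log2 ratios of −0.16 (−0.23 to −0.09) from MS-LS to OB-EB and −1.59 (−1.68 to −1.50) from MS-LS to EHF. Most of its difference lay between OB-EB and EHF. *Gnas* was at 216, 191 and 525 CPM, *Kcnq1ot1* at 21.9, 36.6 and 45.4 CPM and *Tssc4*, a small protein gene of the same domain, at 21.3, 26 and 39.6 CPM. In trophoblast *Kcnq1ot1* was at 12.4, 13.9 and 22.1 CPM and past 2-fold lower at OB-EB and EHF, whereas *Tssc4*, at 14.7, 17.1 and 24.7 CPM, was within 2-fold. *Mcts2*, a translation factor gene, was at 47.9, 35.7 and 56.6 CPM in embryonic cells. Its sequence is a retrocopy of *Mcts1* in an intron of *H13*, so some of its reads may belong to these genes.

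The mix of embryonic cell classes also differed between stages, so matched classes were compared. *Snrpn* was lower at EHF than at MS-LS in epiblast-like, nascent mesoderm-like and definitive endoderm-like cells, with log2 ratios of −1.44 (−1.71 to −1.17), −1.78 (−2.14 to −1.44) and −2.08 (−2.63 to −1.57). *Meg3* was higher in all 3 classes, with log2 ratios of 1.57 (1.31 to 1.82), 3.0 (2.62 to 3.39) and 2.88 (2.34 to 3.45). *Cdkn1c* had log2 ratios of 1.39 (0.62 to 2.12), 1.62 (1.14 to 2.11) and 4.07 (3.08 to 5.26). *Dlk1* in nascent mesoderm-like cells had a log2 ratio of 5.08 (3.80 to 6.74).

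In trophoblast the counts lay near those of all genes. Relative to the shift, none of 23 counted members was at least 2-fold higher at EHF than at MS-LS and 2, *Snrpn* and *Rian*, were lower, beside 7.47% and 7.86% of all genes. *Igf2* and *H19* in trophoblast had log2 ratios of 0.32 (0.10 to 0.54) and 0.20 (0.13 to 0.26). In extraembryonic endoderm 5 of 25 were higher (*Dlk1*, *Nnat*, *Meg3*, *Slc22a18* and *Gnas*) and none was lower (all genes 8.5% and 5.65%). In extraembryonic mesoderm 9 of 25 were higher relative to the shift and 1, *Phlda2*, was lower (all genes 12.5% and 9.92%). There *Dlk1* had the highest log2 ratio of CPM, 4.86 (3.87 to 6.09), followed by *Meg3* with 3.99 (3.60 to 4.40), *Rian* with 2.69 (2.27 to 3.15) and *Mest* with 2.48 (2.31 to 2.66). The cluster of 109 cells between extraembryonic mesoderm and allantois was present at EHF only, and its part in the extraembryonic mesoderm values was not tested. Stage and library cannot be told apart in any of these values.

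**Figure D4:**
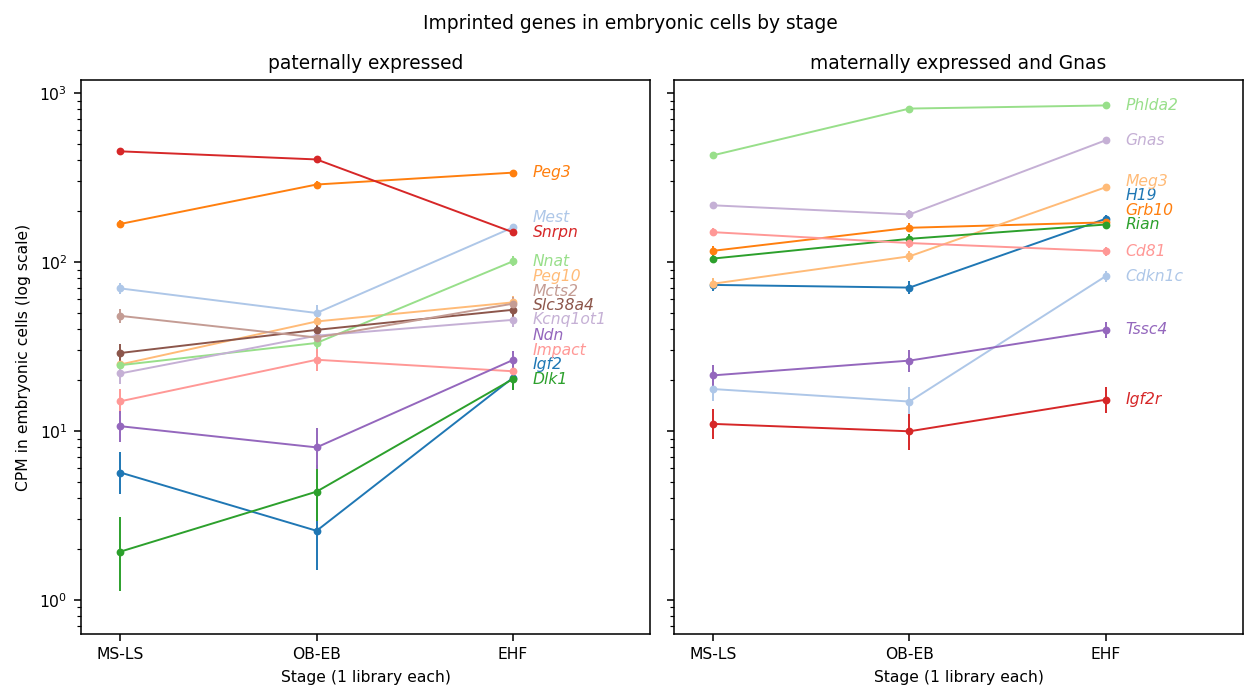
CPM in embryonic cells (log scale) of the 22 genes at MS-LS, OB-EB and EHF, 1 library each, with exact Poisson 95% intervals. Left, paternally expressed genes. Right, maternally expressed genes and *Gnas*. Gene names are spread vertically to stay legible. *Snrpn* was lowest at EHF, whereas *Dlk1*, *Cdkn1c*, *Nnat* and *Meg3* were highest there.

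Neighbouring genes were compared across the 9, 8 and 14 cell classes of at least 50 cells at MS-LS, OB-EB and EHF. The classes of a stage share a library and its free RNA, and the correlations describe them without a test. *Igf2* and *H19*, expressed from opposite parental copies, had Pearson's r of 0.99, 0.99 and 0.94 on the log2(CPM + 10) scale (Spearman's rho 0.95, 1.0 and 0.93). *Meg3* and *Rian* had r of 0.88, 0.96 and 0.97, although rho was 0.38 at MS-LS, where the visceral endoderm-like class stood far above the others. *Dlk1* and *Meg3* had r of 0.80, 0.71 and 0.68, with rho of 0 at MS-LS and of 0.61 and 0.60 later. *Peg3* and *Usp29*, whose starts lie 163 bases apart, had r of 0.83, 0.45 and 0.85 (rho 0.92, 0.60 and 0.80), with 101 to 148 *Usp29* UMIs behind them. *Peg10* and *Sgce*, which also start next to each other, had r of 0.73, 0.43 and 0.49 (rho 0.70, 0.62 and 0.52). In the *Kcnq1ot1* domain, the pairs varied widely. *Kcnq1ot1* and *Cdkn1c* had r of 0.24, 0.11 and 0.37, *Kcnq1ot1* and *Phlda2* 0.70, 0.11 and 0.37, *Kcnq1ot1* and *Cd81* 0.47, 0.91 and 0.46, and *Cdkn1c* and *Phlda2* 0.65, 0.66 and 0.54. *Airn* lies antisense to *Igf2r* and had only 6 to 31 UMIs over the classes, so its relation to *Igf2r* could not be described.

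**Figure D5:**
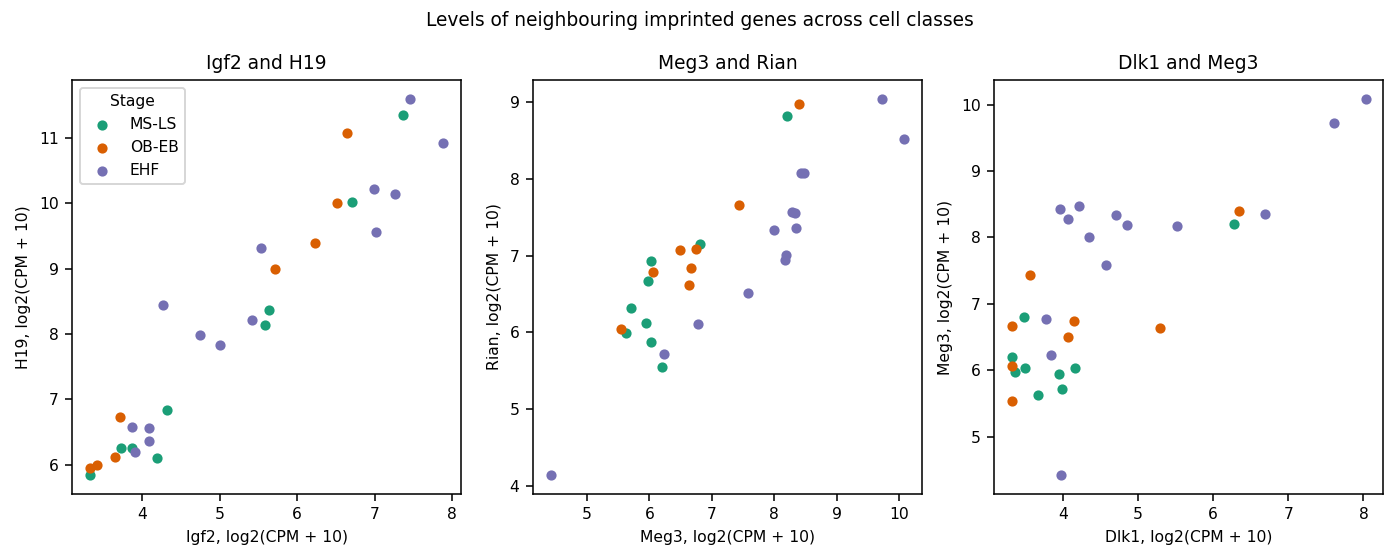
Levels of 3 pairs of neighbouring imprinted genes in the 9, 8 and 14 cell classes of MS-LS, OB-EB and EHF, as log2(CPM + 10) on both axes, 1 point a class. The *Igf2* and *H19* points lie along 1 line from the epiblast-like classes to the extraembryonic classes, and the *Dlk1* and *Meg3* points scatter more widely.

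The other 11 members stayed under 50 CPM in every class. *Plagl1*, *Sgce*, *Zrsr1*, *Peg12*, *Airn*, *Usp29*, *Magel2*, *Zim1*, *Slc22a18*, *Dcn* and *Ppp1r9a* ranged from 0 to 34.0 CPM over the compartments. *Usp29* reached 18.8, 34 and 21.3 CPM in extraembryonic mesoderm and 1.31, 2.14 and 3.73 CPM in trophoblast. *Sgce* was at 33.7, 25.7 and 22 CPM in extraembryonic endoderm against 6.12, 7.98 and 16.9 CPM in embryonic cells. *Plagl1*, a zinc finger regulator of other imprinted genes, was at 1.59, 3.16 and 7.24 CPM in embryonic cells. *Dcn* had 7 UMIs in all at MS-LS and 13 at EHF, and *Zim1* had 16 to 24 in each library. *Zrsr1* is a retrocopy of *Zrsr2* inside *Commd1*, and the reads of such copies and of overlapping genes such as *Nnat* and *Blcap* may have been counted for the other gene.

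A list of 34 other imprinted genes was set beside the members. At EHF 22 of them were counted in trophoblast, of which 5 were higher and 4 lower, beside 9.92% and 19% of all genes. The 6 with the largest ratios were *Sfmbt2*, *Asb4*, *Ascl2*, *Zdbf2*, *Gab1* and *Peg13*. *Sfmbt2*, a chromatin gene paternally expressed in trophoblast, was at 272, 373 and 243 CPM in trophoblast and 5.89, 5.27 and 3.28 CPM in embryonic cells, with log2 ratios of 5.53, 6.14 and 6.21. *Ascl2*, a factor of the ectoplacental cone, was at 19.6, 17.1 and 139.6 CPM against 0.79, 1.51 and 3.28 CPM, and *Gab1* at 48.6, 53.5 and 83.3 CPM against 4.19, 4.37 and 9.06 CPM. *Asb4* and *Zdbf2* were lower in trophoblast at all 3 stages, with log2 ratios of −4.16, −3.39 and −6.20 and −2.83, −3.34 and −3.54. *Peg13* had 2 UMIs in trophoblast and 24 in embryonic cells at EHF.

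Of 15 genes of the insulin-like growth factor axis beside *Igf2* and *Igf2r*, none was at least 2-fold higher in trophoblast at any stage, and 5 of 10, 3 of 10 and 6 of 11 counted genes were lower at MS-LS, OB-EB and EHF. Of all genes 11.3%, 9.53% and 9.92% were higher and 14.9%, 16% and 19% lower. *Igf1r*, the receptor through which *Igf2* signals, was at 48.3, 42.2 and 41.9 CPM in embryonic cells, 21.9, 24.6 and 16.9 CPM in trophoblast, 9.97, 3.31 and 5.80 CPM in extraembryonic endoderm, 28.8, 49 and 61.9 CPM in extraembryonic mesoderm and 24.5, 30.2 and 49.9 CPM in blood and endothelium. Of these 5 compartments it was lowest at each stage in extraembryonic endoderm, where *H19* was highest. *Igfbp4*, a binding protein, was at 164, 122 and 187 CPM in extraembryonic endoderm against 27.8, 30.1 and 74.7 CPM in embryonic cells. Of 11 factors that maintain imprints, 9 were counted at each stage, and none was at least 2-fold higher in any of the 3 extraembryonic compartments. In extraembryonic endoderm 2, 3 and 2 of them were lower, among them *Trim28*, the corepressor that ZFP57 recruits, at OB-EB and EHF, beside 18%, 18.6% and 23% of all genes. *Zfp57* itself was at 6.91, 8.13 and 11 CPM in embryonic cells, 7.83, 11.8 and 9.48 CPM in trophoblast and 2.41, 4.14 and 2.49 CPM in extraembryonic endoderm.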

How the data were processed

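Single-cell libraries of 3 stages were analysed. Per the labels, the authors made them with the Chromium Single Cell 3′ assay, and the submitters' notes name Cell Ranger 3.0.2 and GRCm38. The authors deposited 4 tables of UMI counts per gene and cell without normalization, and 2 of these were identical. The members and lists were chosen with earlier results of these data known. Counts were log-normalised (scale factor 10000) and clustered with Seurat 5.3.0 in R 4.3.3 (2000 variable genes, 50 principal components, resolution 4.5), with the members held out. A cluster was named after the best of 21 cell types with 3 detected markers (a UMI in 20% of cells and 2-fold over other cells), a margin of 0.2 (log2, pseudocount 10 CPM) and, among its 10 leading genes, not more markers of any rival type than of its own. The margin, and the rule that a cluster between types of 1 compartment still has that compartment, were set after the data were seen. Scrublet in scanpy 1.11.5 marked 9, 0 and 14 cells, too few to be used. Members at 50 CPM or more in a class of at least 50 cells were named with full values, the others by ranges and counts. Intervals were computed with scipy 1.17.1 and figures drawn with matplotlib 3.10.9. Positions are from GENCODE vM21. On simulated sums for trophoblast over embryonic cells at EHF (12149 genes, 200 changed by 2 on the log2 scale), 195 of the 200 were called in the right direction. Of the unchanged genes, 214 were also called past 2-fold. In the simulation, 96.1% of the intervals held the true ratio. Its sums were Poisson draws, as the intervals assume, so this checks the computation only. Differences between cells or libraries and free RNA were not simulated.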

Additional observations from a re-analysis of the deposited data

Results flagged for a closer look

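For 3 members in the 3 extraembryonic compartments, and for 4 in blood and endothelium, the log2 ratio over embryonic cells had intervals on opposite sides of 0 at different stages. The difference between stages was not tested, since each stage is 1 library. *Peg3* in extraembryonic endoderm had log2 ratios of 0.40, −0.056 and −0.63 at MS-LS, OB-EB and EHF. *Meg3* in extraembryonic mesoderm was at −0.42, −0.27 and 1.67. *Rian* in the same compartment was at −1.11, −0.63 and 0.92. *Peg3* was at 222, 276 and 218 CPM in extraembryonic endoderm and at 168, 287 and 338 CPM in embryonic cells. For *Meg3* and *Rian* the extraembryonic mesoderm levels moved more than the embryonic ones. Extraembryonic mesoderm held a cluster of 109 cells between it and allantois at EHF only, so its stages compare unlike mixes of cells. The part of that mix in these ratios was not tested. The extraembryonic mesoderm markers with a row (7, 7 and 8 genes) summed to 599.9, 929 and 1818 CPM in that compartment at MS-LS, OB-EB and EHF, and their part in these ratios was not tested. In blood and endothelium, *Phlda2* had log2 ratios of 1.14, −0.35 and −1.19, *Peg3* of 0.56, 0.094 and −1.71, *Gnas* of 0.38, −0.13 and −0.22, and *Sgce* of 0.83, 1.57 and −1.38 at MS-LS, OB-EB and EHF. That compartment held blood-like cells at EHF only (100 of 187 cells), so its stages compare unlike mixes of cells. The part of that difference in these ratios was not tested.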

How the results depend on the processing

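The 9 counts of members higher in trophoblast, extraembryonic endoderm and extraembryonic mesoderm and the counts higher and lower at EHF than at MS-LS in embryonic cells, 11 in all, were recomputed under 10 alternatives: 3 other clusterings, 3 filters on cells, 2 minimum UMI sums, median-of-ratios scaling and equal weight for each cluster of a compartment. Of these 110 counts, 109 were within 1.5 times the reported one. The exception was the number of members higher at EHF than at MS-LS in embryonic cells, 16 by CPM and 8 after median-of-ratios scaling, which removes the shift of the median gene. Counts of members higher in trophoblast, extraembryonic endoderm and extraembryonic mesoderm ranged from 3 to 9, 8 to 13 and 10 to 15. All 1578 recomputed values of the 159 ratios past 2-fold kept their sign, and 1537 stayed past 2-fold. The 2 minimum UMI sums change which genes are counted but not a ratio, so their values among the 1578 could not differ. Of the calls made at all 3 stages, *Impact* and *Magel2* in trophoblast, *Mest* and *Magel2* in extraembryonic endoderm, and *Dlk1* and *Phlda2* in extraembryonic mesoderm did not hold at all 3 under 1 or 2 alternatives each. No paired analysis was possible because each stage is 1 library and the stages share fewer than 2 replicate numbers. The other counts (members lower in a compartment, blood and endothelium, parental sides, stages in other compartments) were not recomputed as counts. Depth limits the genes with few UMIs. Up to 23.4% of cells had no compartment. Doublets were kept.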
